A study of Bos taurus with 15 samples.

Results

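CYR61 and CTGF are target genes of the HIPPO pathway, and SOX2 is a pluripotency gene that the pathway's effector YAP restrains in outer cells of the mouse morula. They were followed here as 3 rows, named by their symbols, of the 31999 rows of a morula RNA-seq count table. The table held 15 libraries of bovine morulae, the stage at which the cleaving cells form a compact cluster, in 3 groups of 5. Androgenetic morulae were haploid with a sperm genome only (library titles beginning TII, replicates 1, 2, 4, 5 and 6). Parthenogenetic morulae were haploid with an oocyte genome only (titles beginning CHX, replicates 1, 2, 3, 5 and 6). ICSI morulae were diploid and came from intracytoplasmic sperm injection (replicates 1 to 5). The labels state no drug, dose, bull, donor or day, and do not spell out TII or CHX. Each group was made by its own procedure, so parental genome, ploidy and procedure cannot be told apart in comparisons with ICSI. Between the haploid groups, parental genome and procedure cannot be told apart. Nothing in the labels says whether replicates are separate embryos or pools, and a p-value here reflects no more than library-to-library spread, which may be technical.

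In the HIPPO pathway the kinases LATS1 and LATS2 phosphorylate YAP and its relative TAZ and keep them out of the nucleus. Where the kinases are quiet, as in the polarised outer cells of the mouse morula, nuclear YAP acts with TEAD factors on genes of the trophectoderm, the lineage that forms the placenta. In inner cells of the mouse embryo, where YAP is held in the cytoplasm, SOX2 comes on and marks the future inner cell mass. Whether this holds in bovine morulae was not tested here. CYR61 (CCN1) and CTGF (CCN2) encode secreted proteins of the CCN family that bind integrins and matrix, and are widely used as readouts of YAP and TEAD activity. Both also respond to serum and to actin tension through the serum response factor SRF.

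Library totals ran from 19968077 to 28981601 counts, and 13564 to 19950 rows had at least 1 count. The fewest detected rows in each group were in androgenetic replicate 6 (13564), parthenogenetic replicate 6 (16154) and ICSI replicate 5 (15286). Levels are given in CPM, the standard depth-scaled count, with library totals scaled by TMM factors that correct for differences in composition. Counting error was small beside the spread between libraries: the SD of the members within a group was 3.47 to 18.1 times the SD that counting alone gives. The kit counted reads without molecular identifiers, so the Poisson intervals of single libraries cover counting error only. CYR61 and CTGF each had a partner row under an Ensembl identifier. CYR61 and ENSBTAG00000009844 had equal counts in 15 of 15 libraries, and CTGF and ENSBTAG00000006367 in 13, with a difference of at most 1 count. The whole-table tests counted these partners as rows of their own.

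No member differed between groups beyond the spread of the libraries. In edgeR's quasi-likelihood test, 0 of 3 members passed an adjusted p of 0.05 in any of the 3 comparisons, and the unadjusted p was under 0.05 for 0 of 3 as well. Tests with DESeq2 and with limma voom likewise called 0 of 3. Over all rows, an unadjusted edgeR p under 0.05 was found in 19.7% for androgenetic against ICSI, 1.86% for parthenogenetic against ICSI and 18.7% for androgenetic against parthenogenetic. DESeq2 called 12.3%, 0.217% and 10.3% of the rows in the same order, and limma voom called 5.35%, 0.0672% and 4.29%. Among the 16375 rows tested, 2.82% were called for androgenetic against ICSI (1.76% higher and 1.06% lower in androgenetic libraries). The share called was 0.0733% for parthenogenetic against ICSI, with no row higher, and 1.75% for androgenetic against parthenogenetic (0.916% higher, 0.837% lower), so a count of 0 of 3 lies near the background. With DESeq2 size factors in place of TMM, the median of all rows shifted by 0.13 (log2) for androgenetic minus ICSI and by 0.12 for androgenetic minus parthenogenetic, and the 288 higher and 173 lower rows of the former became 372 and 139. In these bulk libraries, fewer cells of a type and less RNA per cell cannot be told apart.

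CYR61 stood at 5.57, 4.68, 1.99, 3.45 and 0 CPM in androgenetic replicates 1, 2, 4, 5 and 6. In parthenogenetic replicates 1, 2, 3, 5 and 6 it stood at 7.004, 1.58, 5.65, 2.75 and 4.05 CPM. ICSI replicates 1 to 5 had 3.82, 7.46, 9.78, 2.34 and 2.48 CPM. The 3 groups overlapped widely, and androgenetic replicate 6 was the only library without a count of CYR61: 0 counts there allow up to 0.163 CPM. That library also had the fewest detected rows, and the part of that in the CYR61 value was not tested.

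The order of the CYR61 means was ICSI (5.18 ± 3.30 CPM, SD, n = 5), parthenogenetic (4.21 ± 2.18) and androgenetic (3.14 ± 2.21), and no neighbours in that order differed beyond their spread. Its log2 fold change was -0.72 ± 0.96 (SE) for androgenetic minus ICSI (edgeR adjusted p = 0.730). It was -0.30 ± 0.95 for parthenogenetic minus ICSI (edgeR adjusted p = 1.0) and -0.42 ± 0.95 for androgenetic minus parthenogenetic (0.857). The 95% intervals were wide: for androgenetic minus ICSI they ran from 6.62-fold lower to 2.44-fold higher. The size of the androgenetic difference moved with single libraries and with the model. Without androgenetic replicate 6 the difference from ICSI was -0.29 and that from the parthenogenetic group 0.01, and without ICSI replicate 3, the highest CYR61 library, the difference from ICSI was -0.37. With the number of detected genes as a covariate the differences were -0.0088 and -0.08, whereas limma voom, which works on logarithms of the counts, gave -1.69 and -1.42.

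CTGF, the other CCN gene used as a YAP readout, showed a different pattern within the androgenetic group. It stood at 63.3, 15.8, 18.7, 14.9 and 53.4 CPM in androgenetic replicates 1, 2, 4, 5 and 6, so that replicates 1 and 6 were far above the other 3. ICSI replicates 1 to 5 had 30.4, 38.4, 46.3, 45.2 and 24.04 CPM. Parthenogenetic replicates 1, 2, 3, 5 and 6 had 32.1, 24.1, 46.4, 22.9 and 14.8 CPM. On the TMM scale, androgenetic libraries thus lay on both sides of the ICSI range, with 0 of 5 inside it. Divided by library totals alone, androgenetic replicates 1 and 6 fell inside that range. They had 1443 of 24303687 and 985 of 28462700 counts, against 514 of 22810004 in ICSI replicate 5 and 1548 of 24349553 in ICSI replicate 3. The TMM factors were 0.6495 in androgenetic replicate 6 and 1.375 in ICSI replicate 3. Of all rows tested, 6.35% had the same arrangement on the TMM scale, in which 0 of 5 androgenetic libraries fell inside the ICSI range and some lay on either side. Androgenetic replicate 6, with the second highest TMM-scaled CTGF level of the 15 libraries, was the library with 0 counts of CYR61. That CTGF rank also rested on the TMM factor.

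The order of the CTGF means was ICSI (36.9 ± 9.59 CPM, SD, n = 5), androgenetic (33.2 ± 23.3) and parthenogenetic (28.1 ± 11.9), again with no neighbours apart beyond their spread. The SD was thus largest in androgenetic libraries, and the difference in spread was not tested. The log2 fold change was -0.15 ± 0.47 (SE) for androgenetic minus ICSI (edgeR adjusted p = 0.899), -0.39 ± 0.48 for parthenogenetic minus ICSI (1.0) and 0.24 ± 0.47 for androgenetic minus parthenogenetic (0.830). CTGF was the most tightly measured member. Its 95% interval for androgenetic minus ICSI ran from 2.21-fold lower to 1.80-fold higher, and that for parthenogenetic minus ICSI from 2.62-fold lower to 1.52-fold higher.

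SOX2, a transcription factor of pluripotent cells and of the inner cell mass, stood at 0.834, 6.53, 2.26, 2.73 and 0.163 CPM in androgenetic replicates 1, 2, 4, 5 and 6. The lowest of these rested on 3 counts, with an exact Poisson 95% interval of 0.0335 to 0.475 CPM. Parthenogenetic replicates 1, 2, 3, 5 and 6 had 2.20, 7.22, 1.40, 5.13 and 8.28 CPM. ICSI replicates 1 to 5 had 2.45, 3.62, 2.24, 3.53 and 1.08 CPM. Parthenogenetic replicates 2, 5 and 6 were above every ICSI library, and the other 2 were inside the ICSI range. Androgenetic replicates 6 and 1 had the lowest and second lowest SOX2 of all 15 libraries, and androgenetic replicate 2 had the third highest.

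SOX2 was higher in the parthenogenetic library in 17 of 25 pairs with ICSI libraries. Means were 4.84 ± 3.02 CPM (SD, n = 5) in parthenogenetic, 2.58 ± 1.05 in ICSI and 2.50 ± 2.48 in androgenetic libraries. The 95% intervals of the fold change ran from 1.94-fold lower to 6.80-fold higher for parthenogenetic against ICSI, and from 7.05-fold lower to 1.88-fold higher for androgenetic against parthenogenetic. For androgenetic against ICSI the interval ran from 3.73-fold lower to 3.49-fold higher. The log2 fold changes were 0.91 ± 0.89 (SE), -0.95 ± 0.89 and -0.05 ± 0.88 in that order (edgeR adjusted p = 1.0, 0.617 and 0.984). The sign of the last of these depended on the settings. It turned in 10 of 24 alternatives, 4 of them with 1 library left out, and was 0.11 with DESeq2 size factors.

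**Figure D1:**
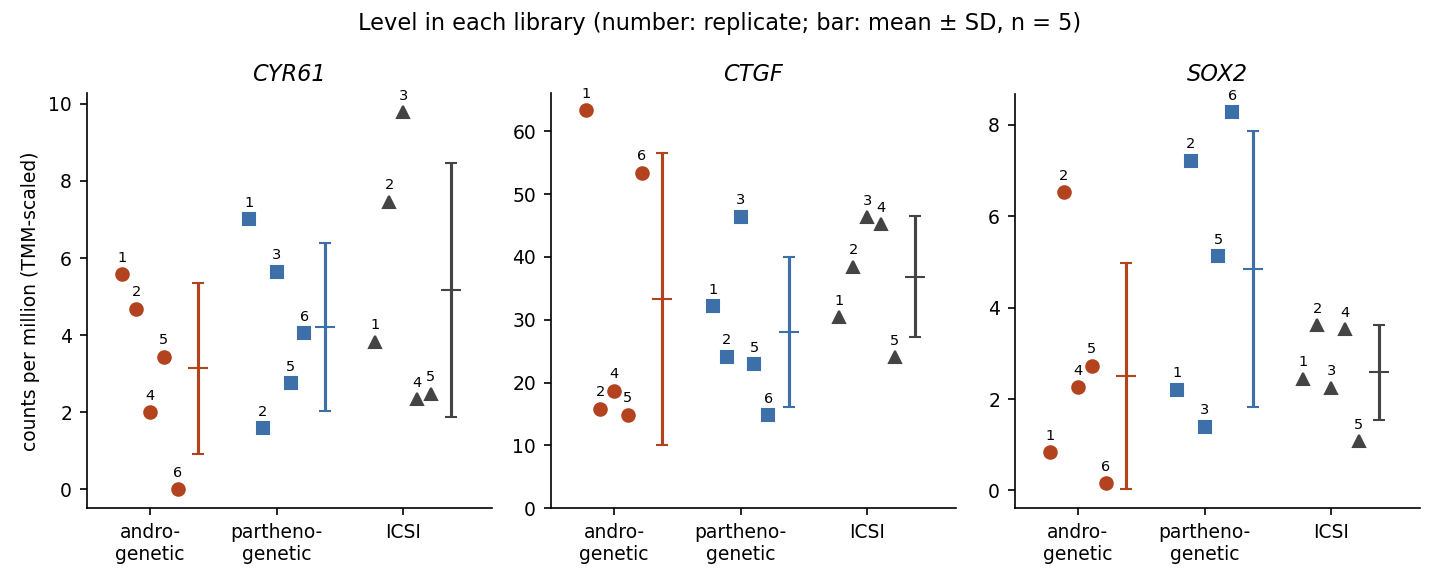
TMM-scaled CPM of CYR61, CTGF and SOX2 in each library, by group. Points are libraries with their replicate number, and bars are the mean ± SD of 5 libraries. On this scale CTGF is highest in androgenetic replicates 1 and 6 (63.3 and 53.4 CPM), where SOX2 is lowest (0.834 and 0.163 CPM).

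The members did not vary as 1 unit from library to library. The levels of 3 pairs were compared over the 15 libraries as log2 CPM with a prior count of 2, by permutation tests with 100000 resamples and Benjamini-Hochberg adjustment over the 3 pairs. CYR61 and CTGF, the pair of YAP readouts, had a Pearson r of -0.12 (permutation p = 0.736, adjusted 0.736) and a Spearman rho of 0.21 (permutation p = 0.449, adjusted 0.674). That r turned to 0.36 without ICSI replicate 3 and androgenetic replicate 6, the libraries farthest from the median of CYR61, and to 0.45 without androgenetic replicate 6 alone (permutation test, adjusted p = 0.333 and 0.163). CYR61 and SOX2 had an r of 0.55 and a rho of -0.04 (permutation p = 0.0576 and 0.881, adjusted 0.0863 and 0.881). This r rested on androgenetic replicate 6, where both genes were lowest: without it r was -0.26, and without it and ICSI replicate 3 r was -0.24.

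Taken over all 15 libraries, CTGF and SOX2 went in opposite directions, a pattern that the ICSI libraries alone did not follow. Their Pearson r was -0.63 (permutation p = 0.0106, adjusted 0.0317) and their Spearman rho -0.67 (permutation p = 0.00817, adjusted 0.0245). The 4 libraries with the most SOX2, androgenetic replicate 2 and parthenogenetic replicates 2, 5 and 6, had 14.8 to 24.1 CPM of CTGF. Among ICSI libraries, replicate 5 had the lowest level of both genes, with 24.04 CPM of CTGF and 1.08 CPM of SOX2. ICSI replicates 2 and 4 had the most SOX2 of that group (3.62 and 3.53 CPM) with 38.4 and 45.2 CPM of CTGF. ICSI replicate 3 did go with the pattern, with the most CTGF of its group (46.3 CPM) and 2.24 CPM of SOX2. The relation within each single group was not tested. With each value centred on its group mean and permuted within groups r was -0.71, and the adjusted permutation p was 0.0649. Without androgenetic replicate 1 and parthenogenetic replicate 6, the libraries farthest from the median of CTGF, r was -0.51 (permutation test, adjusted p = 0.205), so the relation rests in part on those libraries. The call was also lost without androgenetic replicate 1, 2 or 6 or parthenogenetic replicate 6 alone, where r was -0.58, -0.59, -0.58 and -0.57 (permutation test, adjusted p = 0.0709, 0.0716, 0.0929 and 0.0897). The call on rho was lost without each of these and also without parthenogenetic replicate 3 or ICSI replicate 3 (rho -0.62 and -0.64, permutation test, adjusted p = 0.0572 and 0.0515). Without the fewest-genes library of each group, r was -0.61 and rho -0.62, and neither passed (permutation test, adjusted p = 0.105 and 0.109). The sign was negative in each of the 20 alternatives run, all of which pooled the groups. Both levels were divided by the same library factor, and the part of shared scaling in r was not tested.

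**Figure D2:**
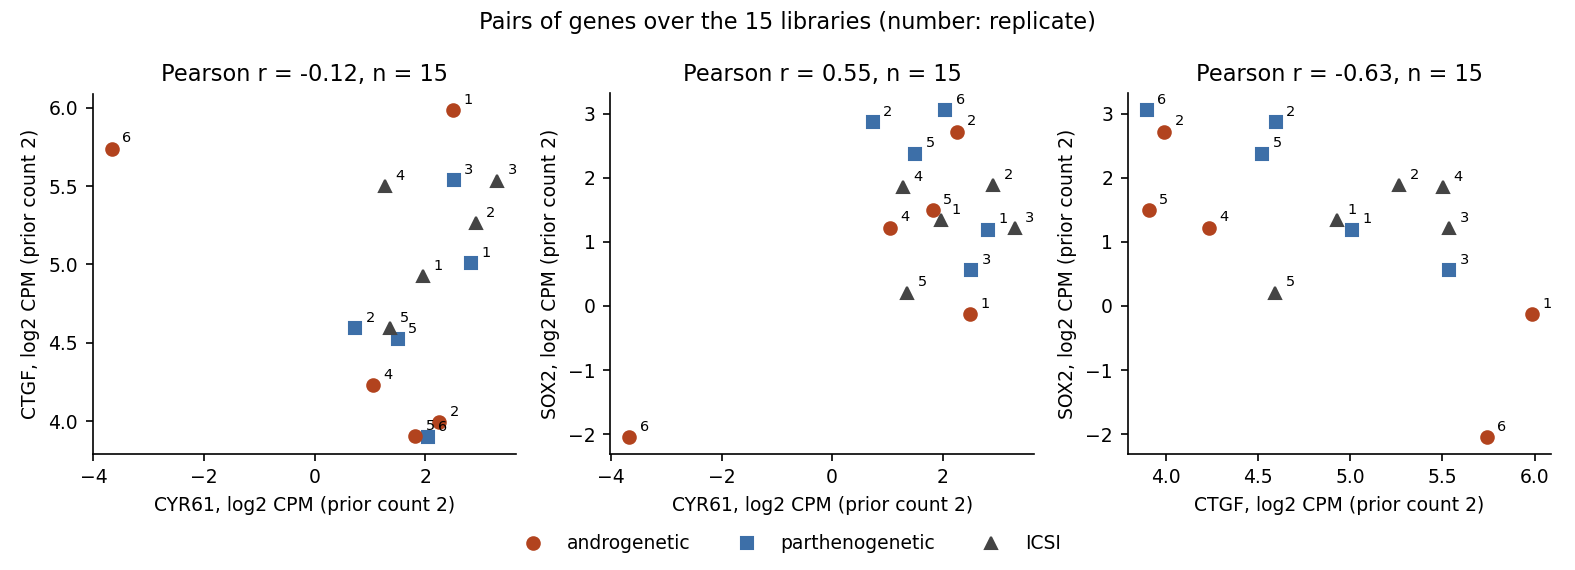
Log2 CPM (prior count 2) of each pair of the members over the 15 libraries, with replicate numbers beside the points and the Pearson r above each panel. CTGF and SOX2 show r = -0.63. Without androgenetic replicate 6, which has 0 counts of CYR61, this r is -0.58 and no longer passes (permutation test, adjusted p = 0.0929). The r of each of the other pairs changes sign without that library.

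The CCN family has 6 genes in mammals, and 5 had a row under their symbol. NOV (CCN3), a member often found to oppose CTGF, had 0 to 77 counts a library. Its levels were 0, 1.29, 1.54, 0.297 and 0.325 CPM in androgenetic replicates 1, 2, 4, 5 and 6, and 0.533, 0, 0, 2.41 and 0 in parthenogenetic replicates 1, 2, 3, 5 and 6. ICSI replicates 1 to 5 had 0.223, 0.339, 1.05, 1.19 and 2.85 CPM. NOV counts were thus found in 5 of 5 ICSI libraries and in 2 of 5 parthenogenetic libraries. The log2 fold change was -0.93 ± 1.55 (SE) for parthenogenetic minus ICSI (edgeR adjusted p = 1.0). The fitted change moved with single libraries: without parthenogenetic replicate 5, the group's highest library, it was -3.03.

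WISP3 (CCN6) averaged 1.52 ± 0.895 CPM (SD, n = 5) in parthenogenetic libraries, against 0.847 ± 0.357 in ICSI and 0.700 ± 0.958 in androgenetic ones. Androgenetic replicate 2 held 2.34 CPM and the other androgenetic libraries 0.0752 to 0.759 CPM. The parthenogenetic library was the higher in 20 of 25 pairs with ICSI libraries, at a log2 fold change of 0.84 ± 1.04 (edgeR adjusted p = 1.0). WISP2 (CCN5), the member that lacks the cysteine-knot domain at the end of the protein, had 1 count in each of 2 libraries and 0 in the others and was not tested. Of the 4 tested CCN rows, 0 were called in any comparison. Their median log2 fold change was -0.49 for androgenetic minus ICSI, -0.35 for parthenogenetic minus ICSI and -0.10 for androgenetic minus parthenogenetic, against -0.01, 0.02 and -0.00 over all rows tested.

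Of the rest of the pathway little could be read by name. Lists of HIPPO kinases and scaffolds (20 genes), YAP, TAZ and TEAD effectors (9 genes), other YAP target genes (21 genes) and polarity and compaction genes (12 genes) had 0 rows under a symbol. The same held for trophectoderm, hypoblast, cumulus cell, oocyte and immediate early genes, so 9 of 12 lists were not analysed here. SOX2 was the only 1 of 19 genes of the pluripotency and inner cell mass list with such a row. The labelled stage could therefore not be checked against defining markers other than SOX2, and levels of cumulus or oocyte genes are not given beside the results. Of 17 SOX family genes listed, SOX2 was again the only row. SOX1, a neural relative of SOX2 outside that list, had 6 counts in androgenetic replicate 2 and 0 in the other libraries.

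Reads of SOX2 may be shared with another gene. In the RefSeq annotation of ARS-UCD2.0, used here for names and neighbours only, the long non-coding RNA gene LOC100849009 spans SOX2, and the strand setting of the counting is not given in the sources used here. Its row stood at 57.4, 48.3, 10.46, 36.8 and 8.67 CPM in androgenetic replicates 1, 2, 4, 5 and 6, and at 15.6, 37.6, 12.8, 19.4 and 52.4 in parthenogenetic replicates 1, 2, 3, 5 and 6. ICSI replicates 1 to 5 lay close together at 17.6, 19.3, 16.8, 13.3 and 14.2 CPM. On the TMM scale, 0 of 5 androgenetic libraries fell inside the ICSI range, with some on either side. Of all rows tested, 6.35% had this arrangement, CTGF among them. The parthenogenetic libraries with the most LOC100849009, replicates 6 and 2, also held the most SOX2. Androgenetic replicate 1, with the highest LOC100849009 level, held the second lowest SOX2. The log2 fold change of LOC100849009 was 0.99 ± 0.55 (SE) for androgenetic minus ICSI (edgeR adjusted p = 0.335) and 0.76 ± 0.55 for parthenogenetic minus ICSI (1.0).

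SRF cofactors and fast-response genes with a symbol row were MKL1, MKL2, RHOB and IER5, a list made with the row names in view. Of the 4, edgeR called 0 in each comparison, and their median log2 fold change was -0.61 for androgenetic minus ICSI, -0.07 for parthenogenetic minus ICSI and -0.54 for androgenetic minus parthenogenetic. MKL1 (MRTFA) and MKL2 (MRTFB) encode SRF cofactors that enter the nucleus when actin polymerises. MKL2 stood at 0.615, 8.19, 4.03, 3.74 and 4.61 CPM in androgenetic replicates 1, 2, 4, 5 and 6, and at 10.7, 19.8, 9.83, 6.10 and 18.9 in parthenogenetic replicates 1, 2, 3, 5 and 6. ICSI replicates 1 to 5 had 14.7, 18.8, 12.8, 14.7 and 2.20 CPM. In all, 4 of 5 ICSI libraries and 4 of 5 parthenogenetic libraries were above every androgenetic library. The share of all rows with this arrangement was not taken. The log2 fold change was -1.58 ± 0.68 (SE) against ICSI (unadjusted p = 0.0321, edgeR adjusted p = 0.203) and -1.62 ± 0.68 against the parthenogenetic group (0.0283, adjusted 0.206). Of all rows, 19.7% and 18.7% had an unadjusted edgeR p under 0.05 in these 2 comparisons. MKL1 had -0.88 ± 0.77 and -0.74 ± 0.77 in the same comparisons (edgeR adjusted p = 0.569 and 0.659).

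IER5, an immediate early response gene, stood at 20.9, 36.4, 5.12, 11.6 and 45.2 CPM in androgenetic replicates 1, 2, 4, 5 and 6. Parthenogenetic replicates 1, 2, 3, 5 and 6 had 3.98, 3.36, 3.895, 1.91 and 10.7 CPM, and ICSI replicates 1 to 5 had 5.09, 4.67, 11.1, 3.75 and 10.2 CPM. The androgenetic library was the higher in 23 of 25 pairs with ICSI libraries and in 24 of 25 pairs with parthenogenetic libraries. The share of all rows with such pair counts was not taken. Log2 fold changes were 1.77 ± 0.65 (SE) against ICSI and 2.32 ± 0.67 against the parthenogenetic group. They did not pass in edgeR (adjusted p = 0.134 and 0.0736) and passed in DESeq2 (adjusted p = 0.0236 and 0.00306), which called 12.3% and 10.3% of all rows in these comparisons. Over all alternatives the adjusted p lay between 0.0236 and 0.599 for the first and between 0.00306 and 0.167 for the second. The second also passed in edgeR without androgenetic replicate 4 (2.58, adjusted p = 0.0340), without parthenogenetic replicate 6 (2.85, adjusted p = 0.0274) and without the fewest-genes library of each group (2.64, adjusted p = 0.0201). The fit without the fewest-genes libraries called 1874 rows in that comparison, against 287 (1.75% of the rows tested) in the main fit. With 1 library left out, between 14 and 903 rows were called there. The passes of IER5 were not set against the share of rows called in each of these fits. With the number of detected genes as a covariate the log2 fold changes were smaller, at 0.74 and 1.73 (edgeR adjusted p = 0.599 and 0.145), and with the replicate number as a block the first was 1.25 (adjusted p = 0.361). The high IER5 libraries, androgenetic replicates 1, 2 and 6, included both libraries with high CTGF and 1 with low CTGF.

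RHOB, a fast-induced small GTPase gene, had 26.97 CPM in androgenetic replicate 5 and 0.263 to 2.22 CPM in the other androgenetic libraries, against 4.16 to 11.3 CPM in ICSI and 1.89 to 12.7 CPM in parthenogenetic libraries. Its log2 fold change from ICSI was -0.34 ± 0.96 (SE; edgeR adjusted p = 0.886) and moved to -2.72 without androgenetic replicate 5 (adjusted p at least 0.102 over the alternatives).

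**Figure D3:**
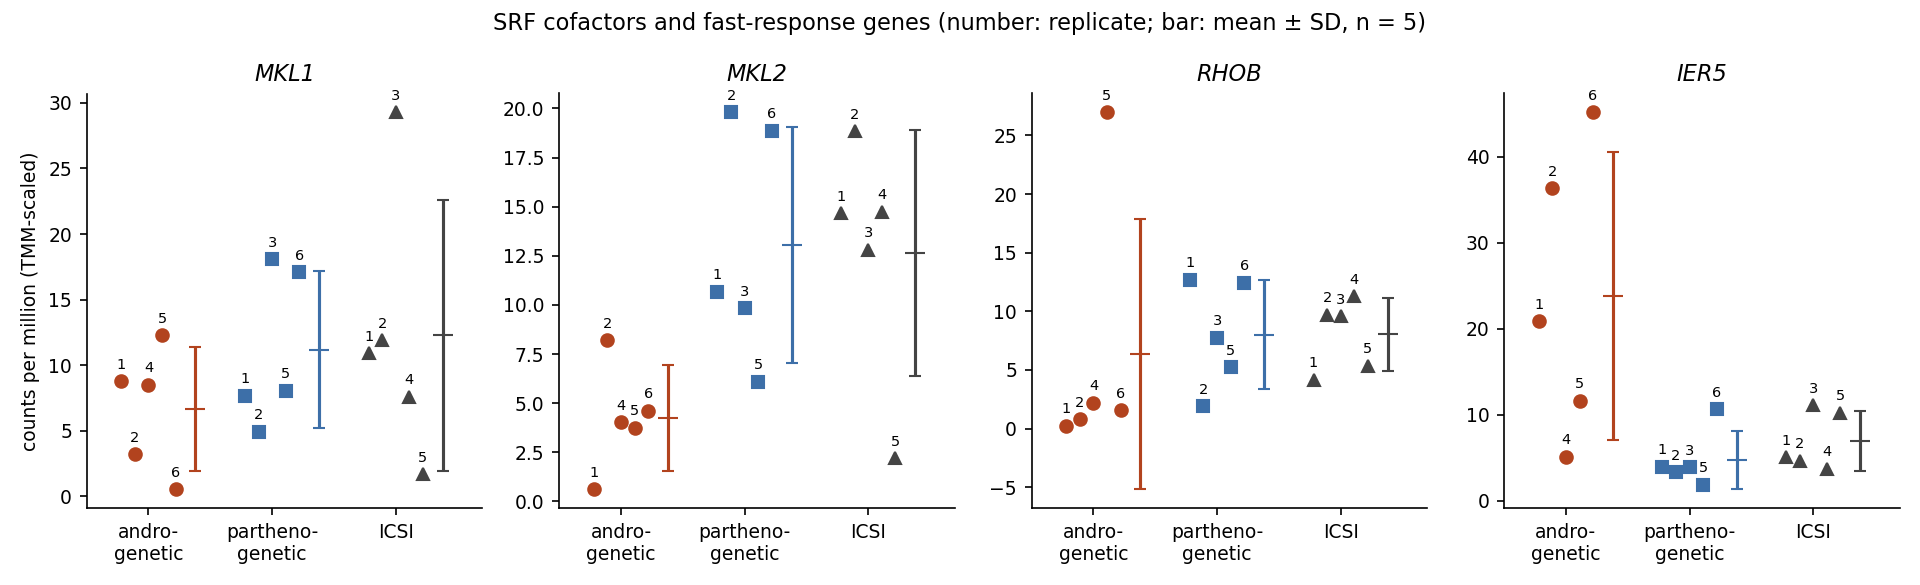
TMM-scaled CPM of MKL1, MKL2, RHOB and IER5 in each library, by group, with replicate numbers and bars for the mean ± SD of 5 libraries (the RHOB bar reaches below 0 because 1 library is far above the others). IER5 lies between 5.12 and 45.2 CPM in androgenetic libraries and at most at 11.1 CPM elsewhere, and MKL2 is at most 8.19 CPM in androgenetic libraries.

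**Figure D4:**
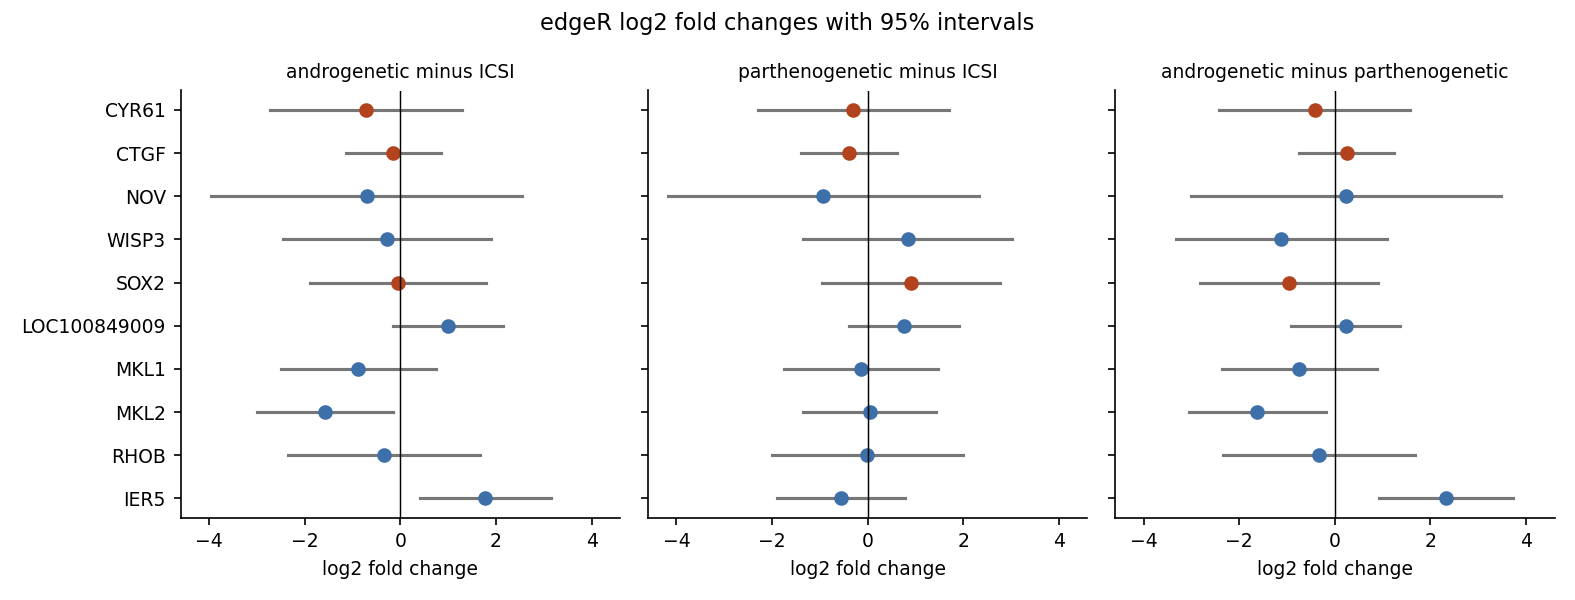
Log2 fold changes (points) with 95% intervals (lines) from edgeR in the 3 comparisons, for the 3 members (orange) and for related rows (blue). The interval of every member spans 0, and the intervals that do not are unadjusted and belong to MKL2 and IER5, which did not pass after adjustment.

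For each member, the 3 symbol rows with the most similar profile were sought among rows with a mean of at least 5 CPM, by the Pearson correlation of log2 CPM over 15 libraries. For CYR61, out of 268 rows compared, these were GCNA, a germ cell gene (r = 0.88), SWI5, a recombination repair gene (0.87), and LARS, the leucyl-tRNA synthetase gene (0.87). They share their low value in androgenetic replicate 6: it had 0 counts of GCNA, 1 of SWI5 and 5.37 CPM of LARS, where every other library had at least 3.56 CPM of GCNA, 11.6 of SWI5 and 55.5 of LARS. Without that library r was 0.26, 0.15 and 0.20 (n = 14), so the likeness rested on 1 library.

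CTGF was most like C8H9orf3, an aminopeptidase gene (r = 0.67), IARS, the isoleucyl-tRNA synthetase gene (0.64), and KBTBD7, an adaptor of a ubiquitin ligase (0.63). These were weaker likenesses that did not depend on androgenetic replicate 6 (0.71, 0.69 and 0.58 without it). In androgenetic replicates 1 and 6, the high CTGF libraries, IARS stood at 35.6 and 36.8 CPM, against 20.3, 13.2 and 13.1 CPM in replicates 2, 4 and 5. IARS was picked for its correlation with CTGF over these same libraries, so this is no separate result.

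The row most like SOX2 was COL24A1, a fibrillar collagen gene (r = 0.89, and 0.76 without androgenetic replicate 6), followed by TRMT2B, a tRNA methyltransferase gene (0.79), and FAXDC2, a gene of the fatty acid hydroxylase family (0.79). For TRMT2B and FAXDC2 r was 0.56 and 0.50 without androgenetic replicate 6, which held 1 count of TRMT2B and 5 of FAXDC2, so their likeness rested in part on that library. COL24A1 had means of 23.4 ± 8.22 CPM (SD, n = 5) in parthenogenetic libraries, 13.9 ± 5.41 in ICSI and 9.99 ± 5.10 in androgenetic ones. Like SOX2 it was highest in the parthenogenetic group, where replicate 6 had the most of both (34.0 CPM of COL24A1), and lowest in androgenetic replicate 6 (2.06 CPM). COL24A1 was picked for its correlation with SOX2 over these same libraries, so this likeness follows from the choice. COL24A1 did not pass between the groups either: its log2 fold change was -1.23 ± 0.53 (SE) for androgenetic minus parthenogenetic (edgeR adjusted p = 0.219) and 0.76 ± 0.52 for parthenogenetic minus ICSI (1.0).

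The signs of small differences depended on the settings. Over 24 alternatives each (9 other fits and 15 fits with 1 library left out), CYR61 stayed negative for androgenetic minus ICSI, CTGF negative and SOX2 positive for parthenogenetic minus ICSI, and SOX2 negative for androgenetic minus parthenogenetic. The other 5 differences turned sign under 2 to 10 of the alternatives, most often SOX2 for androgenetic minus ICSI. In no alternative did a member pass, and the lowest adjusted p of any was 0.359, for CYR61 in limma voom.

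**Figure D5:**
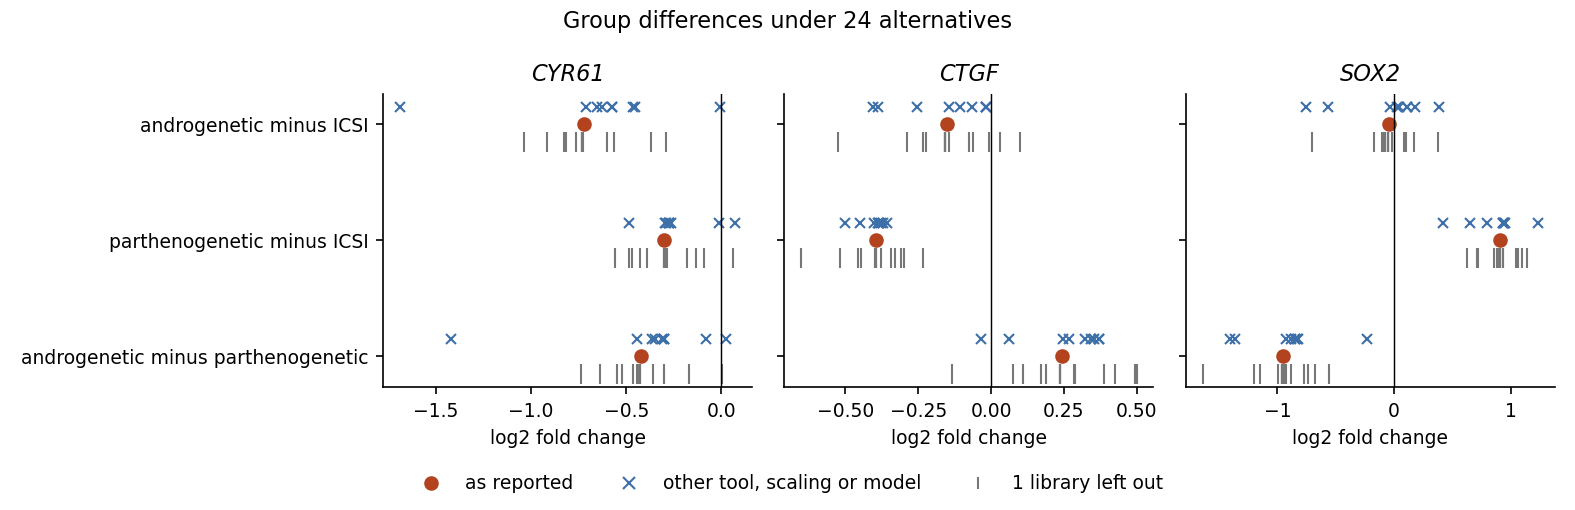
Log2 fold change of each member in the 3 comparisons as reported (circles), under 9 other tools, scalings or models (crosses) and with each of the 15 libraries left out (ticks). The axis differs between panels. SOX2 for androgenetic minus ICSI lies on both sides of 0, from -0.75 to 0.38.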

How the data were processed

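RNA-seq of bovine morulae gave 15 libraries, grouped by the labels. Per the labels' protocols, cDNA of polyadenylated RNA was made by SMART-Seq HT and libraries by Nextera XT. Per the submitters' processing notes, Trim Galore, cutadapt, STAR and featureCounts were used. Not given in the sources used here are tool versions, strand setting, annotation or genome build. The authors deposited raw counts per gene and library, not normalized. Of 31999 rows, 27607 carry Ensembl identifiers, 3615 LOC numbers and 777 symbols.

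Testing used edgeR 4.0.16 (R 4.3.3) with TMM scaling, its standard low-count filter, 1 quasi-likelihood model over the 15 libraries and Benjamini-Hochberg adjustment over 16375 rows. Rows under an adjusted p of 0.05 were called. The procedure was tested on simulated data. Alternatives were DESeq2 1.42.0, limma voom (3.58.1), other scaling, no filter, covariates, only the groups compared, and each library left out.

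Named rows were the 3 members whatever their result, rows of the CCN and SOX lists, and for each member the 3 symbol rows most like it with a mean of at least 5 CPM. MKL1, MKL2, RHOB, IER5, SOX1, DUXA, ARGFX and neighbouring LOC rows were added after row names or values were seen. The members and lists were chosen with earlier results of these data known. A partner row was one within 2% or 3 counts of the member in each library.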

Additional observations from a re-analysis of the deposited data

Results flagged for a closer look

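Among 66 groups of 5 libraries of the tested genes named here, 7 held 1 library far from the other 4, by the gap to its neighbour over the group's range (critical value 0.71). Chance flags about 1 in 20 groups of normally distributed values, but some of these genes were picked for an extreme or matching profile and CPM values are skewed, so 7 of 66 cannot be set against that rate. None was a group of CYR61, CTGF or SOX2. NOV had 2.41 CPM in its highest parthenogenetic library, where the next had 0.533 CPM. RHOB had 26.97 CPM in its highest androgenetic library, where the next had 2.22 CPM. IER5 had 10.7 CPM in its highest parthenogenetic library and 3.98 CPM in the next. Rows like CYR61 in profile gave GCNA at 11.1 CPM and SWI5 at 37.5 CPM in their highest parthenogenetic libraries (8.07 and 18.2 CPM in the next). DUXA had 6423 CPM in its highest androgenetic library and 634 CPM in its highest ICSI library, where the next had 472 and 148 CPM.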

How the results depend on the processing

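All comparisons of CYR61, CTGF and SOX2 stayed on their side of the threshold in 24 alternatives each. SOX2 for androgenetic minus ICSI turned to 0.11 with DESeq2 size factors, 0.0228 with upper-quartile factors, 0.0429 with no filter, 0.11 in DESeq2, 0.38 with genes detected as a covariate and 0.18 without the fewest-genes library of each group. The covariate turned CYR61 for parthenogenetic minus ICSI to 0.0737, and the fewest-genes setting turned CYR61 and CTGF for androgenetic minus parthenogenetic to 0.0228 and -0.0331. With 1 library left out, the ranges were -0.53 to 0.10 for CTGF and -0.71 to 0.37 for SOX2 (androgenetic minus ICSI), -0.56 to 0.0614 for CYR61 (parthenogenetic minus ICSI), and -0.74 to 0.00554 for CYR61 and -0.13 to 0.50 for CTGF (androgenetic minus parthenogenetic).

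Correlations of CTGF with SOX2 were -0.71 with values centred on group means and the groups pooled, -0.51 without the 2 farthest libraries, -0.61 without the fewest-genes libraries (a setting chosen after seeing the data) and -0.68 to -0.57 with 1 library left out. For the CYR61 pairs the 2 farthest libraries were ICSI replicate 3 and androgenetic replicate 6. Without these, without the fewest-genes libraries, and with 1 library left out, CYR61 with CTGF was 0.36, 0.48 and -0.20 to 0.45, and CYR61 with SOX2 -0.24, -0.45 and -0.26 to 0.64.

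Related rows (alternatives added after seeing the data) turned sign as follows. RHOB for parthenogenetic minus ICSI had 0.0249 with DESeq2 size factors, 0.0187 with upper-quartile factors, 0.0126 with no filter, 0.0250 in DESeq2, 0.0179 with only those groups and 0.13 with the covariate. MKL1 had 0.0675 in limma voom, 0.0278 with the replicate block and 0.79 with the covariate for parthenogenetic minus ICSI, and 0.26 with the covariate for androgenetic minus ICSI. MKL2 for parthenogenetic minus ICSI had -0.0068 with the replicate block and -0.41 without the fewest-genes libraries. NOV for androgenetic minus ICSI had 0.27 with the block and 0.26 without those libraries, where it had 0.0537 for parthenogenetic minus ICSI and RHOB had 0.27 between the haploid groups. With 1 library left out, androgenetic minus ICSI ranged from -1.24 to 0.0347 (NOV), -1.48 to 0.00773 (WISP3) and -2.72 to 0.0622 (RHOB); parthenogenetic minus ICSI from -0.40 to 0.48 (MKL1), -0.23 to 0.23 (MKL2) and -0.23 to 0.25 (RHOB); androgenetic minus parthenogenetic from -0.31 to 2.32 (NOV), -2.72 to 0.0453 (RHOB) and -0.0878 to 0.59 (LOC100849009). The cause was not tested.

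Called rows numbered 461 (androgenetic against ICSI), 12 (parthenogenetic against ICSI) and 287 (between the haploid groups). DESeq2 called 1987, 35 and 1665, and the fit without the fewest-genes libraries 1630, 6 and 1874. Limma voom called 876 and 703 for androgenetic against ICSI and between the haploid groups, and the covariate gave 0 and 154 (3037 and 3045 rows at an unadjusted p under 0.05). The fit of the haploid groups alone called 27 between them. With 1 library left out they ranged over 0 to 1077, 3 to 14 and 14 to 903; for androgenetic against ICSI, leaving out any of ICSI replicates 1, 3 and 4 and of androgenetic replicates 1 and 2 gave 0 in edgeR (2721 to 3344 rows at an unadjusted p under 0.05). With the replicate block they were 0 (2523 rows at an unadjusted p under 0.05), 3 and 88, and it changed no call of a member. Replicate numbers share only a label here: same-numbered libraries correlated at -0.045 to 0.092 in their deviations from group means.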

Other observations

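The rows whose profile was most opposed to CYR61, chosen after their values were seen, were DUXA (r = -0.88 over 15 libraries) and ARGFX (-0.84), homeobox genes of the PRD-like class that are known from the early cleavage embryo. Without androgenetic replicate 6 these were -0.61 and -0.67 (n = 14). Both rows were the extremes of 268 compared over the 15 libraries and were not picked again without that library. These values therefore cannot be set against those of the rows most like CYR61. In that library DUXA stood at 6423 CPM and ARGFX at 3923 CPM, both the highest of the series. Parthenogenetic replicate 2, with the lowest CYR61 level of its group (1.58 CPM), held the group's highest DUXA (186.7 CPM) and ARGFX (1064 CPM). ICSI replicate 3, with the highest CYR61 level of the series (9.78 CPM), held the lowest ARGFX of the series (255.5 CPM) and the lowest DUXA of its group (86.6 CPM). Other libraries went less with this. Androgenetic replicate 5 held its group's lowest DUXA (86.36 CPM) and ARGFX (645.5 CPM) with the group's median CYR61 (3.445 CPM). Androgenetic replicate 1, with the group's highest CYR61 (5.575 CPM), held the group's median ARGFX (1004 CPM).

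The long non-coding RNA gene LOC101904769, the RefSeq neighbour of CYR61 (CCN1) in ARS-UCD2.0, had 0 to 1.17 CPM in ICSI libraries, 0 to 6.91 CPM in parthenogenetic libraries and 0.0878 to 23.9 CPM in androgenetic libraries. Its log2 fold change for androgenetic minus ICSI was 4.29 ± 1.68 (SE; edgeR adjusted p = 0.157).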
